A study of Mus musculus with 9 samples.

Results

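The adrenal-type genes are 7 genes chosen for their part in the adrenal cortex, read here in sorted cells of the fetal mouse testis. They are Mc2r, Mrap, Akr1b7, Akr1b3, Cyp21a1, Cyp11b1 and Cyp11b2, chosen by symbol and matched to 7 of the 38560 gene identifiers of the count table. All 9 libraries come from Sf1-eGFP mice at 12.5 days post coitum, in which regulatory sequence of Nr5a1, the gene for the steroidogenic factor SF1, drives a green reporter. The labels name the sorted populations Leydig, Interstitial and Sertoli, with replicates A, B and C of each, and all had passed a CD31 stain used to take out germ and endothelial cells. Each library held total RNA (100 ng) from about 10 sorting experiments of 4 to 10 litters. The protocol describes a mix of A and B as the remaining sample, and C was read as that mix although no label says so. Means, SDs and tests therefore use A and B (n = 2). The sources used here do not give the fluorescence gates.

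In the adrenal cortex, the pituitary hormone ACTH binds the melanocortin receptor MC2R, which reaches the cell surface only with its accessory protein MRAP and raises cAMP. The signal drives cholesterol into steroid synthesis, which the testis shares as far as progesterone. The hydroxylases CYP21A1, CYP11B1 and CYP11B2 then lead to corticosterone and aldosterone instead of androgens. Fetal Leydig and adrenal cortex cells arise from a common SF1-positive primordium, and in mice the fetal testis can respond to ACTH.

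The 4 genes of these 7 that could be tested did not share one order over the populations. The receptor gene Mc2r was highest in Leydig. The aldo-keto reductase genes Akr1b7 and Akr1b3 were highest in Sertoli. The accessory gene Mrap did not differ past the threshold between Leydig and Sertoli. The corticoid-forming P450 genes had at most 11 reads in any library. Of the 7 genes, 4 passed the low-count filter, and their counts do not stand for the other 3. In Leydig against Sertoli, edgeR called 3 of these 4, against 37.5% of the 18048 genes tested, with 1 higher (16.9% of all genes) and 2 lower (20.6%). In Leydig against Interstitial all 4 were called and higher, where 45.1% of genes were called, 22% as higher and 23.2% as lower. In Interstitial against Sertoli 3 were called and lower, with 61.8% of genes called, 32.7% as higher and 29.1% as lower. Mrap, with 4 and 5 reads in Interstitial replicates A and B, passed the filter only through Leydig and Sertoli, where it was higher. Its calls against Interstitial are thus not independent of the filter. Genes were called at a Benjamini-Hochberg adjusted p of 0.05 in edgeR's quasi-likelihood test.

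The labels were only partly matched by marker genes. The 14 listed Sertoli markers summed to 1403 to 1492 CPM in Leydig, 234 to 268 CPM in Interstitial and 4467 to 4712 CPM in Sertoli. CPM are counts per 1000000 reads in genes, scaled by the TMM method. The 11 fetal Leydig markers summed to 525 to 795 CPM in Leydig, 158 to 170 CPM in Interstitial and 792 to 833 CPM in Sertoli. Of the 11 fetal Leydig markers, 2 were higher, 2 lower and 7 not called in Leydig against Sertoli. The 2 lower ones, Nr5a1 (199 CPM in Leydig, 386 CPM in Sertoli) and Inha (51.6 CPM in Leydig, 121 CPM in Sertoli), a subunit gene of the hormone inhibin, weigh most in the Sertoli sum. In Leydig against Interstitial, 10 were higher and 1, Hsd3b6, was lower. No marker of either list was at the detection floor in all 9 libraries. Reads in genes numbered 33.12 to 39.24 M per library. The detection floor, the 3 reads that a count of 0 allows, was 0.0764 to 0.0906 CPM, a one-sided limit that covers counting error only. In bulk samples, fewer cells of a type and less RNA per cell cannot be told apart, and p-values over A and B measure the spread between pools, not between animals.

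Erythroid, germ cell, mesonephric and macrophage markers were most abundant in Interstitial. The 11 erythroid markers summed to 163 to 581 CPM in Leydig, 13942 to 14650 CPM in Interstitial and 164 to 467 CPM in Sertoli. The 10 germ cell markers summed to 111 to 365 CPM in Leydig, 1224 to 1412 CPM in Interstitial and 106 to 157 CPM in Sertoli. In Leydig against Interstitial, where the 4 tested members were higher, all 11 erythroid and all 10 germ cell markers were lower. So were 9 of 10 mesonephric tubule markers, which summed to 60.1 to 85.0 CPM in Leydig, 223 to 264 CPM in Interstitial and 40.1 to 46.0 CPM in Sertoli, and 9 of 10 macrophage markers, at 24.0 to 38.8 CPM in Leydig, 66.9 to 102 CPM in Interstitial and 8.64 to 9.54 CPM in Sertoli. Endothelial markers did not set Leydig apart from Interstitial by their sum, at 248 to 285 CPM in Leydig and 267 to 307 CPM in Interstitial, but were at 48.4 to 51.0 CPM in Sertoli. Gene by gene they did differ, with 5 higher, 2 lower and 3 not called of 10 in Leydig against Interstitial. By their sum, the 10 interstitial progenitor markers were highest in Leydig, like Mc2r. They summed to 1791 to 2011 CPM in Leydig, 1354 to 1409 CPM in Interstitial and 543 to 571 CPM in Sertoli. In Leydig against Interstitial, 8 of the 10 were higher and 2 were not called. All markers of these 6 lists passed the low-count filter, some of them only through populations where they were high. The part of these markers in the members' differences was not tested.

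Leydig replicate B stood apart from replicate A in several of these sums. In replicates A, B and C of Leydig, erythroid markers summed to 163, 581 and 249 CPM, germ cell markers to 111, 365 and 176 CPM, macrophage markers to 24.0, 38.8 and 26.6 CPM, and mesonephric markers to 60.1, 85.0 and 71.8 CPM. Fetal Leydig markers went the other way, at 795, 525 and 706 CPM. B also had the highest share of reads outside genes of the 9 libraries, 38.5% against 32.3% in A. Without Leydig replicate B, edgeR gave log2 fold changes in Leydig against Sertoli of 1.29 for Mc2r, 0.050 for Mrap, -1.45 for Akr1b7 and -0.68 for Akr1b3, and in Leydig against Interstitial of 1.49, 3.32, 2.53 and 0.37 for the same genes. No member's call changed without it. Interstitial replicate B stood apart in adrenal medulla markers, at 35.8 CPM against 9.03 CPM in replicate A.

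Mc2r encodes the ACTH receptor (ENSMUSG00000045569, chromosome 18, 68406907 to 68429320, minus strand; all coordinates on GRCm38). It had 234, 182 and 217 reads in replicates A, B and C of Leydig, 109, 80 and 89 in Interstitial, and 107, 94 and 122 in Sertoli. In CPM these were 7.04, 5.24 and 5.87 in Leydig, 2.70, 2.33 and 2.21 in Interstitial, and 3.00, 2.76 and 3.28 in Sertoli. Every Leydig library lay above every other library, while Interstitial and Sertoli lay side by side, without overlap only after TMM scaling. Before scaling, Interstitial replicate A was at 2.82 CPM, above Sertoli replicate B at 2.69 CPM. The lanes of each library differed by no more than counting error, with a spread over lanes of 0.618 times the Poisson value.

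Mc2r averaged 6.14 ± 1.27 CPM in Leydig and 2.88 ± 0.173 CPM in Sertoli (SD, n = 2). The edgeR fit, from which folds are taken here and below in place of ratios of mean CPM, put Leydig 2.07-fold higher. Its log2 fold change was 1.05 ± 0.20 (SE; edgeR quasi-likelihood, Benjamini-Hochberg adjusted p 0.00315). Against Interstitial, at 2.51 ± 0.261 CPM, Leydig was 2.46-fold higher (1.30 ± 0.20, edgeR adjusted p 0.00106). Interstitial and Sertoli did not differ past the threshold (-0.25 ± 0.21, 95% interval -0.73 to 0.22, edgeR adjusted p 0.325). Of the 4 tested members, Mc2r was the only 1 with its highest mean in Leydig. The authors' deposited table for Leydig against Interstitial lists Mc2r at a log2 fold change of 1.29 with an adjusted p of 5.51e-06. It is not listed in the authors' deposited table for Leydig against Sertoli, whose smallest log2 fold change is 1.00 in size.

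**Figure D1:**
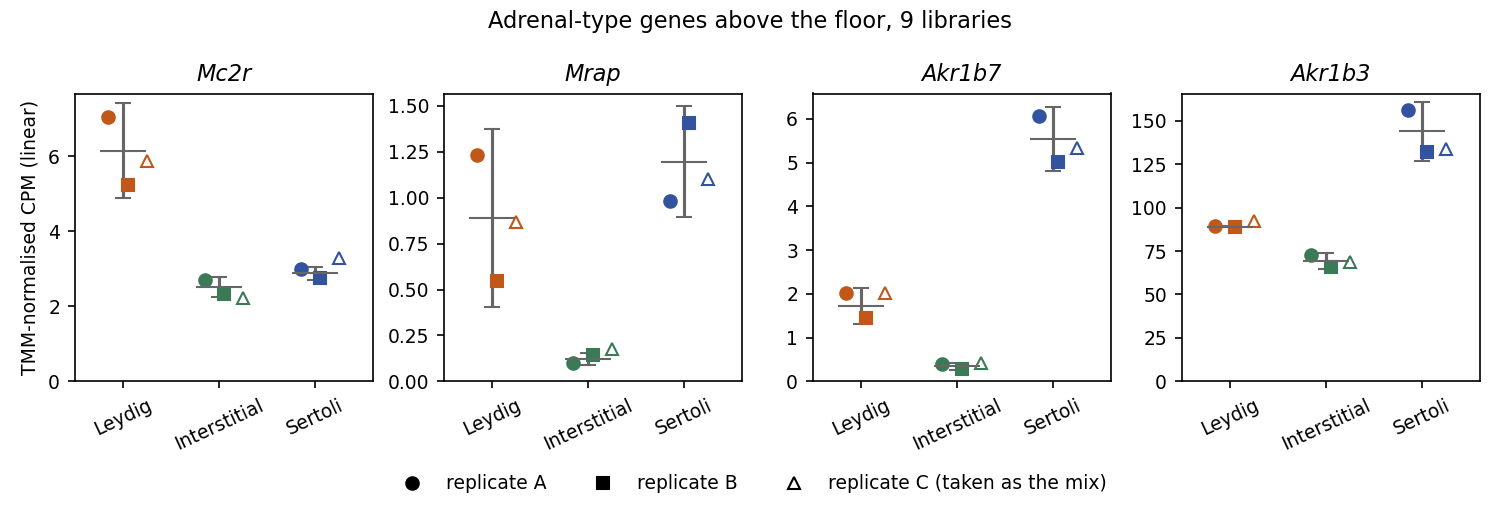
TMM-normalised CPM (linear axes from 0, one scale per gene) of the 4 members above the floor, in Leydig, Interstitial and Sertoli; filled points are replicates A and B, open triangles replicate C, bars the mean of A and B with its SD. Mc2r was highest in Leydig (5.24 to 7.04 CPM), while Akr1b7 (5.02 to 6.06 CPM) and Akr1b3 (132 to 156 CPM) were highest in Sertoli.

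Mrap encodes the accessory protein that carries MC2R to the membrane (ENSMUSG00000039956, chromosome 16, 90738207 to 90749785, plus strand). It had 41, 19 and 32 reads in replicates A, B and C of Leydig, 4, 5 and 7 in Interstitial, and 35, 48 and 41 in Sertoli. In CPM these were 1.23, 0.548 and 0.866 in Leydig, 0.0990, 0.146 and 0.174 in Interstitial, and 0.982, 1.41 and 1.10 in Sertoli. Leydig and Sertoli overlapped, and every Interstitial library was below both. No Interstitial library was at the floor of 3 reads, although each was within 4 reads of it. The spread of Mrap reads over lanes was 1.65 times the Poisson value. It was 1.31 for Akr1b3 and 1.47 for Cyp11b1, and 0.758 for Akr1b7 and 1.09 for Cyp21a1. Intervals that cover counting error only leave such an excess out.

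Mrap averaged 0.890 ± 0.485 CPM in Leydig and 1.20 ± 0.301 CPM in Sertoli (SD, n = 2). The log2 fold change was -0.47 ± 0.40 with a 95% interval of -1.38 to 0.44, which leaves differences within those bounds undetected (edgeR adjusted p 0.405). The estimate turned to 0.050 without Leydig replicate B (edgeR adjusted p 0.947) and was -1.16 without Leydig replicate A (edgeR adjusted p 0.0775). Against Interstitial, at 0.122 ± 0.0329 CPM, Leydig was 7.24-fold higher (2.86 ± 0.57, edgeR adjusted p 0.00376). Interstitial was 10.0-fold below Sertoli (-3.32 ± 0.54, edgeR adjusted p 0.000724). Both calls held without any 1 library, though the Leydig against Interstitial estimate was 2.17 without Leydig replicate A, and in the lanes used 2 at a time it was 2.32 or 3.73. In the same lanes, Interstitial against Sertoli was -2.85 or -4.02. The authors' deposited tables, whose smallest log2 fold changes are 1.00 in size, do not list Mrap in any comparison. Why they leave it out was not tested.

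Leydig replicate A was above B for several genes tied to steroid synthesis. Mrap was at 1.23 CPM in A and 0.548 CPM in B, Mc2r at 7.04 and 5.24 CPM, and Akr1b7 at 2.02 and 1.44 CPM. The 95% counting intervals of Akr1b7 overlapped, at 1.56 to 2.56 CPM in A and 1.08 to 1.93 CPM in B before TMM scaling. Those of Mrap and Mc2r did not overlap. Cyp17a1, which commits steroids to the androgen route, was at 150 and 69.5 CPM in the same libraries, and Star, which brings cholesterol into mitochondria, at 70.2 and 43.9 CPM. Akr1b3, at 89.4 and 88.7 CPM, did not share this split. The order of A above B was not confined to Leydig. Cyp17a1 was at 20.96 CPM in A and 12.25 CPM in B of Interstitial, and at 78.55 and 66.52 CPM in Sertoli. Star, Mc2r, Akr1b7 and Akr1b3 were also higher in A than in B of both populations. Mrap went the other way, at 0.0990 and 0.146 CPM in Interstitial and 0.982 and 1.41 CPM in Sertoli. Leydig replicate B was also the Leydig library with the most erythroid, germ cell, macrophage and mesonephric marker reads, as given above. The part of these markers, or of the order of A above B, in the spread of Mrap in Leydig was not tested.

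Per kilobase of exon, the receptor gene was read more than its partner in every library. RPKM, the TMM-normalised CPM per kilobase of annotated exon, averaged 3.77 for Mc2r and 0.563 for Mrap in Leydig, 1.54 for Mc2r and 0.0773 for Mrap in Interstitial, and 1.77 for Mc2r and 0.756 for Mrap in Sertoli. The share of Mrap reads in the sum of Mrap and Mc2r reads was 14.9%, 9.45% and 12.9% in replicates A, B and C of Leydig, 3.54%, 5.88% and 7.29% in Interstitial, and 24.6%, 33.8% and 25.2% in Sertoli. The 3 populations did not overlap in this share. The 95% Wilson intervals of Leydig and Interstitial did overlap, for example 6.14 to 14.3% in Leydig replicate B and 3.58 to 14.3% in Interstitial replicate C. Those of Sertoli, whose lowest bound was 18.3%, lay above those of Interstitial and of Leydig replicates B and C and met that of Leydig replicate A, which ended at 19.6%.

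**Figure D2:**
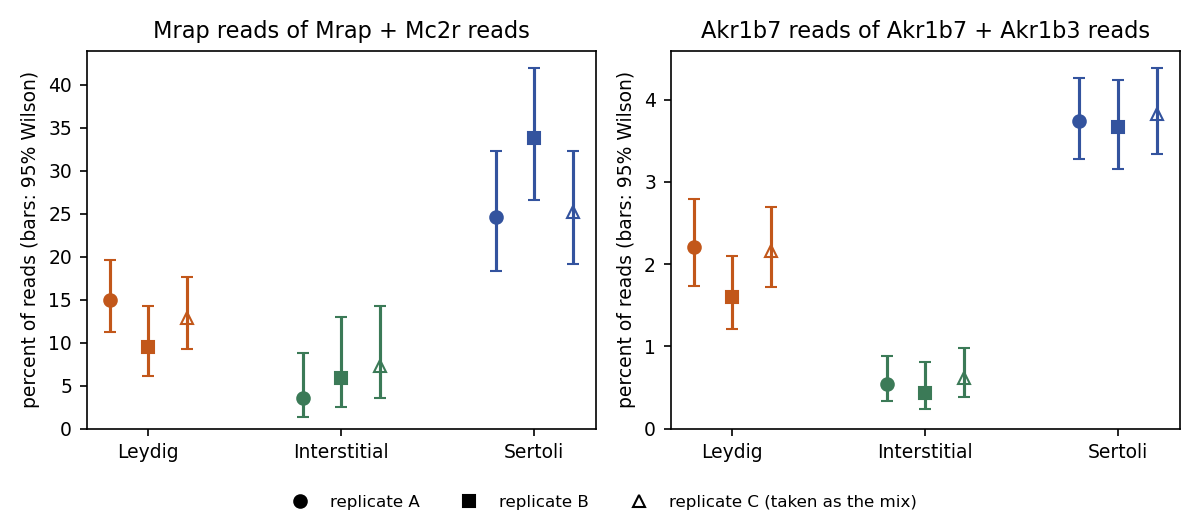
Share of reads (percent, axes from 0) that fell on Mrap among Mrap and Mc2r reads, left, and on Akr1b7 among Akr1b7 and Akr1b3 reads, right, for each library of Leydig, Interstitial and Sertoli; bars are 95% Wilson intervals, which cover counting error only. In both panels Sertoli was highest and Interstitial lowest, with 24.6 to 33.8% against 3.54 to 7.29% for Mrap.

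Akr1b7 and Akr1b3 belong to the aldo-keto reductases and sit on chromosome 6 beside Akr1b8 and Akr1b10. AKR1B7 detoxifies the aldehyde released when the cholesterol side chain is cut, and in the mouse adrenal its gene responds to ACTH. AKR1B3 is aldose reductase, which turns glucose into sorbitol. Since related copies can share reads, the first 90 coding bases of Akr1b7 are shown with those of its relatives (GENCODE M21, plus sense of the transcript, 5′ to 3′). Capitals mark bases that differ from Akr1b7 at the same position, 6 in Akr1b8 and 25 in Akr1b3.
Akr1b7: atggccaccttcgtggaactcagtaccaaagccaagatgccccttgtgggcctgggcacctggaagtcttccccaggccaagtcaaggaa
Akr1b8: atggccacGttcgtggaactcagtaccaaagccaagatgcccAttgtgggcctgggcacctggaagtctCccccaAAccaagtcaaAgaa
Akr1b3: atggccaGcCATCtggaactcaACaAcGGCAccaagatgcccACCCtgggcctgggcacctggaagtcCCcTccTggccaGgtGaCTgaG

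Over the whole coding sequence of 951 bases, Akr1b7 was 73.0% identical to Akr1b3, 84.9% to Akr1b8 and 89.3% to Akr1b10. The longest run that it shares with them is 23 bases with Akr1b3, 52 with Akr1b8 and 59 with Akr1b10. Of the 50-base windows in Akr1b7 exons, 15.8% also occur in another gene, mostly in the antisense pseudogene Gm13857, which itself had 0 to 5 reads per library. The sources used here give neither the read length nor whether reads were counted by strand, so reads of overlapping antisense genes cannot be told apart.

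Akr1b7 (ENSMUSG00000052131, 34412334 to 34423142, plus strand) had 67, 50 and 75 reads in replicates A, B and C of Leydig, 16, 10 and 17 in Interstitial, and 216, 171 and 198 in Sertoli. In CPM these were 2.02, 1.44 and 2.03 in Leydig, 0.396, 0.291 and 0.423 in Interstitial, and 6.06, 5.02 and 5.33 in Sertoli. No 2 populations overlapped, with Sertoli first, Leydig between and Interstitial last.

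It averaged 1.73 ± 0.406 CPM in Leydig and 5.54 ± 0.738 CPM in Sertoli (SD, n = 2). In the edgeR fit Leydig was 3.30-fold lower (-1.72 ± 0.23, edgeR adjusted p 0.000452). Against Interstitial, at 0.343 ± 0.0741 CPM, Leydig was 4.99-fold higher (2.32 ± 0.31, edgeR adjusted p 0.000559). Interstitial was 16.5-fold lower than Sertoli (-4.04 ± 0.29, edgeR adjusted p 4.67e-06), the widest of the members' differences in these fits. The authors' deposited table lists Akr1b7 in all 3 of their comparisons, at -1.58 for Leydig against Sertoli, 2.24 for Leydig against Interstitial and -3.82 for Interstitial against Sertoli.

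Akr1b3 (ENSMUSG00000001642, 34302434 to 34317478, minus strand) was read far more. It had 2971, 3078 and 3402 reads in replicates A, B and C of Leydig, 2931, 2269 and 2762 in Interstitial, and 5555, 4498 and 4972 in Sertoli. In CPM these were 89.4, 88.7 and 92.0 in Leydig, 72.5, 66.0 and 68.7 in Interstitial, and 156, 132 and 134 in Sertoli. The order of the populations was that of Akr1b7, again without overlap, over a narrower range.

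The means were 89.0 ± 0.475 CPM in Leydig, 69.3 ± 4.59 CPM in Interstitial and 143.9 ± 16.9 CPM in Sertoli (SD, n = 2). Leydig was 1.66-fold below Sertoli (-0.73 ± 0.09, edgeR adjusted p 0.000222). It was 1.30-fold above Interstitial (0.38 ± 0.09, edgeR adjusted p 0.00815), a call lost without Interstitial replicate B (0.29, edgeR adjusted p 0.0770). Interstitial was 2.16-fold below Sertoli (-1.11 ± 0.09, edgeR adjusted p 9.31e-06). Of the 50-base windows in Akr1b3 exons, 13.6% occur elsewhere, mostly in Gm38056, a gene model on another chromosome.

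The 2 reductase genes thus kept one order but not one ratio. Akr1b7 took 2.21%, 1.60% and 2.16% of their joint reads in replicates A, B and C of Leydig, 0.543%, 0.439% and 0.612% in Interstitial, and 3.74%, 3.66% and 3.83% in Sertoli. The 95% Wilson intervals of the populations did not overlap, with Leydig from 1.21 to 2.79%, Interstitial from 0.239 to 0.978% and Sertoli from 3.16 to 4.39%. Per kilobase, Akr1b7 averaged 1.35 RPKM in Leydig, 0.268 RPKM in Interstitial and 4.32 RPKM in Sertoli, while Akr1b3 averaged 10.6 RPKM in Leydig, 8.26 RPKM in Interstitial and 17.2 RPKM in Sertoli. The close copy Akr1b8 was above both on this scale, at 52.6 to 57.3 RPKM in Leydig, 13.4 to 15.2 RPKM in Interstitial and 114 to 122 RPKM in Sertoli, in the same order of populations. Akr1b10, the copy most like Akr1b7, had a narrower range and was highest in Leydig, with 6.12 to 6.62 RPKM in Leydig, 3.87 to 4.50 RPKM in Interstitial and 4.27 to 4.69 RPKM in Sertoli. Whether reads of these copies were counted to Akr1b7 was not tested.

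**Figure D3:**
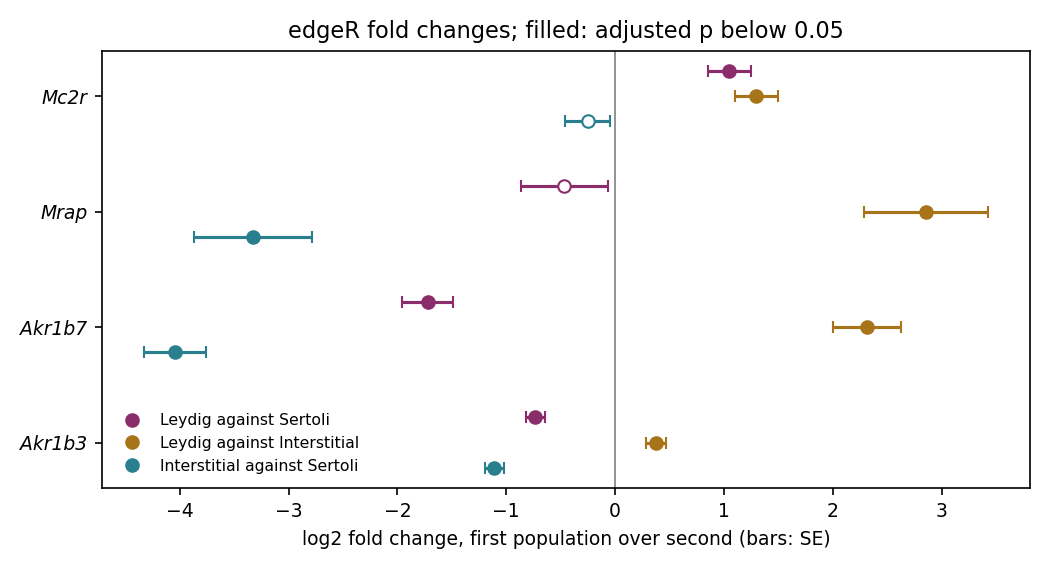
log2 fold changes with SE of the 4 tested members in the 3 comparisons (edgeR on replicates A and B), first population over second; filled points have an adjusted p below 0.05. Akr1b7 spans -4.04 to 2.32, while Mc2r in Interstitial against Sertoli and Mrap in Leydig against Sertoli are the 2 open points.

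Cyp21a1 encodes the steroid hydroxylase that turns progesterone towards corticoids (ENSMUSG00000024365, chromosome 17, 34801348 to 34804561, minus strand). It had 6, 7 and 3 reads in replicates A, B and C of Leydig, 2, 1 and 3 in Interstitial, and 1, 4 and 0 in Sertoli. All 27 reads fell on 17 of the 36 lanes, and 6 of the 9 libraries were at the floor of 3 reads or below. The highest value, in Leydig, was 0.205 CPM before TMM scaling.

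The low-count filter left Cyp21a1 untested. Summed over replicates A and B, it had 13 reads in Leydig and 5 in Sertoli, a ratio per read sequenced of 2.67 with a 95% counting interval of 0.893 to 9.56. Leydig's 13 reads against 3 in Interstitial gave 4.77 (1.31 to 26.1), an interval of counting error only. Without the filter, edgeR gave that difference an adjusted p of 0.111. Its 23.8% of 50-base windows found elsewhere lie mostly in the pseudogene Cyp21a2-ps, which had 0 or 1 read per library, and it overlaps the antisense pseudogene Tnxa by 102 exon bases (6 to 23 reads).

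Cyp11b1 encodes the mitochondrial hydroxylase that makes corticosterone and Cyp11b2 the aldosterone synthase, neighbours on the minus strand of chromosome 15 at 74834125 to 74841643 and 74851010 to 74856318 (ENSMUSG00000075604 and ENSMUSG00000022589). Their first 90 coding bases are shown because reads from so close a pair may fall on either gene. Capitals mark the 2 bases of Cyp11b2 that differ from Cyp11b1.
Cyp11b1: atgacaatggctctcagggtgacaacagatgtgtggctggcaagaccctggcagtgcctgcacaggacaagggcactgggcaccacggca
Cyp11b2: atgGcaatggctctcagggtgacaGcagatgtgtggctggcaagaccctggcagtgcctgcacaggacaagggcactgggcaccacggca

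Their coding sequences were 86.9% identical and share an unbroken run of 244 bases. Cyp11b1 had 5, 3 and 9 reads in replicates A, B and C of Leydig, 3, 3 and 4 in Interstitial, and 11, 3 and 9 in Sertoli. Its 50 reads fell on 24 of the 36 lanes, with 4 libraries at the floor. The populations overlapped, and the highest library, in Sertoli, was at 0.295 CPM before TMM scaling.

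Over replicates A and B, Cyp11b1 had 8 reads in Leydig and 14 in Sertoli, a ratio of 0.586 (95% counting interval 0.213 to 1.5). Leydig against the 6 Interstitial reads gave 1.47 (0.447 to 5.13), and Interstitial against Sertoli 0.40 (0.126 to 1.11). No difference was detectable at this depth. Cyp11b1 also overlaps the antisense gene Gml2 by 285 exon bases, and Gml2 had 6, 15 and 4 reads in Leydig, 49, 46 and 53 in Interstitial, and 4, 4 and 9 in Sertoli. Whether any Cyp11b1 reads came from Gml2 was not tested.

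Cyp11b2 was at the floor in all 9 libraries. It had 0 reads in 8 of them and 1 read in Interstitial replicate B. By the one-sided limit, a count of 0 allows up to 3 reads in a library. On the two-sided 95% footing of the other counting intervals the bound is 3.69 reads, 0.0940 to 0.111 CPM in the 8 libraries at 0. In the whole table, 16474 of 38560 genes (42.7%) were at the floor in all 9 libraries.

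**Figure D4:**
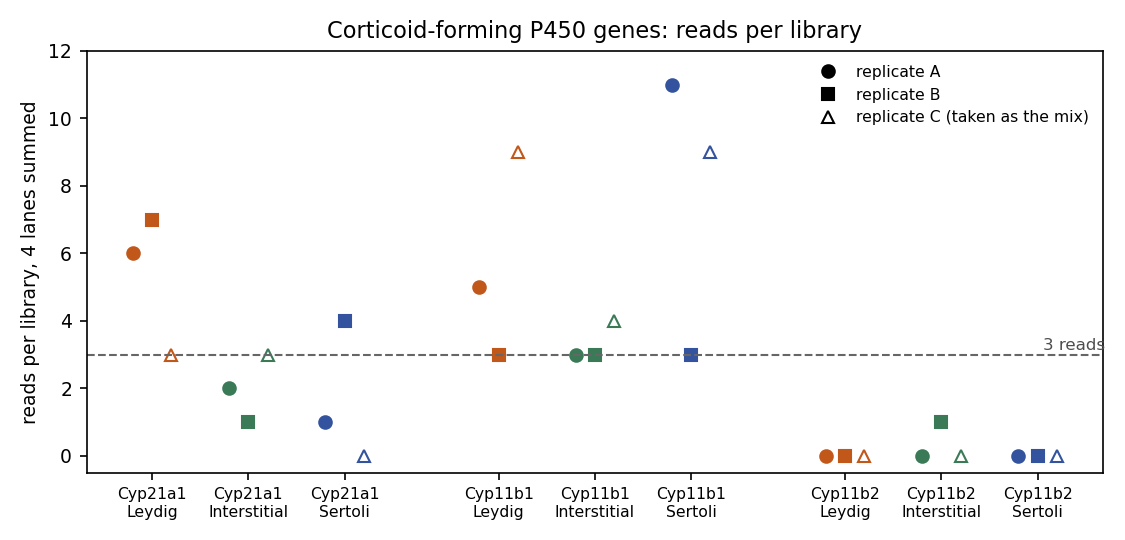
Reads per library (linear axis, 4 lanes summed) of Cyp21a1, Cyp11b1 and Cyp11b2 in Leydig, Interstitial and Sertoli, with the floor of 3 reads as a dashed line. Cyp21a1 was above the line in 2 Leydig libraries and 1 Sertoli library, Cyp11b1 reached 11 reads, and Cyp11b2 had 1 read in all.

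The median log2 fold change of the 4 tested members was -0.60 in Leydig against Sertoli, 1.81 in Leydig against Interstitial and -2.22 in Interstitial against Sertoli, beside -0.0054, 0.0099 and 0.043 over all genes tested. The Leydig libraries serve in both of the first 2 comparisons and the Interstitial libraries in the last 2. With library size in place of TMM, the median of all genes shifted by 0.10 in Leydig against Sertoli, -0.064 in Leydig against Interstitial and 0.17 in Interstitial against Sertoli. The share of calls that were higher was then 58.8% in place of 45.1% in Leydig against Sertoli, 40.2% in place of 48.7% in Leydig against Interstitial and 65.2% in place of 52.9% in Interstitial against Sertoli, while the members' calls and signs did not change.

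Ranked by RPKM among 26597 genes with reads, Akr1b3 stood at percentile 83.5 in Leydig, 79.5 in Interstitial and 89.7 in Sertoli. Mc2r stood at percentile 66.3 in Leydig, 55.0 in Interstitial and 57.3 in Sertoli. Akr1b7 covered a wider range, from 54.1 in Leydig and 37.9 in Interstitial to 68.5 in Sertoli. Mrap stood at 46.2 in Leydig, 26.0 in Interstitial and 49.4 in Sertoli.

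Set beside Amh, the hormone gene that marks Sertoli cells, the members fell into separate ranges. The Leydig mean of Amh was 27.8% of its Sertoli mean, and that of Akr1b7 31.2%. For Akr1b3 this share was 61.9%, for Mrap 74.5% and for Mc2r 213%. The Interstitial mean was 3.74% of the Sertoli mean for Amh, 6.20% for Akr1b7, 10.2% for Mrap, 48.1% for Akr1b3 and 87.2% for Mc2r. All 14 listed Sertoli markers were lower in Leydig than in Sertoli, and 13 of 14 were higher in Leydig than in Interstitial, with Dmrt1 lower. The part of Sertoli RNA in the Leydig values of the members was not tested.

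Some genes had profiles close to those of the members over the 9 libraries, measured as the root mean square distance between centred log2 CPM, a description over points that share depth and scaling. Nearest to Mc2r were Pcp4l1 (0.101), Arhgap6 (0.106) and Hspa12a (0.119), where the median tested gene was at 0.663. Nearest to Akr1b7 were Cited1 (0.116), Ntn4 (0.166) and Reep2 (0.182), with a median of 1.65 over genes. Mrap, with fewer reads, had more distant neighbours in Cpa1 (0.276), Adh1 (0.289) and Gsg1l (0.310), against a median of 1.40. Akr1b3 lay nearest to Tmed4 (0.0469), Plcd3 (0.0476) and Tmem19 (0.0571), with a median of 0.543.

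Other genes of ACTH signalling went in both directions. Of 29 tested, 8 were higher and 7 lower in Leydig against Sertoli, which is 51.7% called beside 37.5% of all genes. In Leydig against Interstitial 14 were higher and 4 lower (62.1%, beside 45.1% of all genes), and in Interstitial against Sertoli 8 were higher and 15 lower (79.3%, beside 61.8%). The list's median log2 fold changes in these comparisons were 0.026, 0.40 and -0.26, beside the medians of all genes given above. Mc4r, a melanocortin receptor gene known from appetite control, was highest in Leydig like Mc2r, with 184, 195 and 200 reads there, 93, 95 and 80 in Interstitial, and 22, 25 and 27 in Sertoli. Its log2 fold change against Sertoli was 3.00 ± 0.22 (edgeR adjusted p 1.39e-05). The other melanocortin receptor genes Mc1r, Mc3r and Mc5r did not pass the filter, with at most 8, 1 and 12 reads in a library.

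Mrap2, the second accessory gene, had 12, 15 and 22 reads in Leydig, 4, 0 and 4 in Interstitial, and 17, 27 and 24 in Sertoli. Like Mrap, it was higher in Leydig than in Interstitial (2.83 ± 0.78, edgeR adjusted p 0.0171) and not past the threshold between Leydig and Sertoli (-0.71 ± 0.50, edgeR adjusted p 0.315). Pomc, whose product is the precursor of ACTH, had 51, 37 and 59 reads in Leydig, 34, 36 and 37 in Interstitial, and 71, 67 and 65 in Sertoli, and was called only in Interstitial against Sertoli (-1.13 ± 0.27, edgeR adjusted p 0.00553). The phosphodiesterase genes Pde8b and Pde11a, whose products break down cyclic nucleotides, were lower in Leydig than in Sertoli (-1.66 ± 0.17 and -1.44 ± 0.18) and higher in Leydig than in Interstitial (1.16 ± 0.20 and 1.08 ± 0.21). Among adenylyl cyclases, which make cAMP, Adcy5 was higher in Leydig than in Sertoli (1.89 ± 0.20) but lower in Leydig than in Interstitial (-0.61 ± 0.17), with means of 3.72 CPM in Leydig, 5.74 CPM in Interstitial and 0.98 CPM in Sertoli. Adcy9 was higher in Leydig than in Interstitial (1.42 ± 0.09) but lower in Leydig than in Sertoli (-1.30 ± 0.08), with means of 22.6 CPM in Leydig, 8.54 CPM in Interstitial and 54.0 CPM in Sertoli. Adcy8 was lower in Leydig than in Interstitial (-4.20 ± 0.71), on only 0 to 52 reads per library.

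Of 16 listed genes of steroid synthesis, 0 were higher and 6 lower in Leydig against Sertoli, 37.5% called and so the same share as over all genes. The list is not confined to steps that adrenal and testis share. It holds Cyp17a1 of the androgen route and Hsd17b3, which is also among the listed Sertoli markers. In Leydig against Interstitial 11 were higher and 1 lower (75.0%, beside 45.1% of all genes), and in Interstitial against Sertoli 1 was higher and 13 lower (87.5%, beside 61.8%). The list's median log2 fold changes were 0.018, 1.15 and -1.36, so that in Leydig against Sertoli the median and the calls differ in sign. Cyp11a1, which cuts the cholesterol side chain, was higher in Leydig than in Interstitial (2.87 ± 0.42) and not past the threshold against Sertoli (0.15 ± 0.37, edgeR adjusted p 0.786). Hsd17b3, which makes testosterone, was likewise higher there (3.02 ± 0.12) and lower in Leydig than in Sertoli (-1.91 ± 0.10), as was Fdxr (-0.99 ± 0.09), an electron donor of mitochondrial P450 enzymes. Hsd3b6 was the 1 lower in Leydig against Interstitial (-5.23 ± 0.50). The 0 higher in Leydig against Sertoli by edgeR was also 0 at an unadjusted p under 0.05, and 0 with DESeq2 and limma voom.

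Of 9 tested genes of corticosteroid metabolism and response, 4 were higher and 3 lower in Leydig against Sertoli (77.8% called, beside 37.5% of all genes), 3 higher and 2 lower in Leydig against Interstitial (55.6%, beside 45.1%), and 3 higher and 4 lower in Interstitial against Sertoli (77.8%, beside 61.8%). The list's median log2 fold changes were 0.25, 0.19 and -0.36. Hsd11b2, which inactivates corticosterone, averaged 72.6 ± 11.6 CPM in Leydig, 36.2 ± 4.07 CPM in Interstitial and 37.5 ± 2.64 CPM in Sertoli (SD, n = 2), and was higher in Leydig against both Sertoli (0.91 ± 0.12) and Interstitial (1.02 ± 0.12). The mineralocorticoid receptor gene Nr3c2 was lower in Leydig than in Sertoli (-1.03 ± 0.26). The glucocorticoid receptor gene Nr3c1 was between the others in Leydig, higher than in Sertoli (0.25 ± 0.07) and lower than in Interstitial (-0.26 ± 0.07). Sgk1, a kinase gene that corticosteroids induce, was lower in Leydig than in Interstitial (-0.74 ± 0.18). The glucocorticoid targets Fkbp5 (-0.57 ± 0.08) and Tsc22d3 (0.83 ± 0.09) went opposite ways in Leydig against Sertoli.

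Of 24 genes of adrenal cortex development, all tested, 11 were higher and 9 lower in Leydig against Sertoli (83.3% called, beside 37.5% of all genes), 11 higher and 8 lower in Leydig against Interstitial (79.2%, beside 45.1%), and 13 higher and 11 lower in Interstitial against Sertoli (100%, beside 61.8%). The list's median log2 fold changes were 0.062, 0.20 and 0.45. Nr5a1, whose regulatory sequence drives the sorted reporter, was lower in Leydig than in Sertoli (-0.995 ± 0.07) and higher in Leydig than in Interstitial (1.90 ± 0.07). Nr0b1, which encodes the SF1 partner DAX1, was lower in Leydig than in Sertoli (-1.12 ± 0.15), as was the homeobox gene Hoxb9 (-1.08 ± 0.13). The capsule and stroma genes Rspo3 (2.82 ± 0.38) and Tcf21 (2.09 ± 0.09) were higher in Leydig than in Sertoli. Against Interstitial, Rspo3 was lower in Leydig (-1.61 ± 0.26) and Tcf21 higher (0.46 ± 0.09), so that Rspo3 had its highest mean, 5.86 CPM, in Interstitial. Shh, a ligand of adrenal progenitor cells, was higher in Leydig than in Interstitial (1.65 ± 0.41), while Rnf43, whose product removes Wnt receptors, was lower there (-1.53 ± 0.18). Shh had only 6 to 28 reads per library. Dlk1, a gene of the adrenal capsule, was higher in Interstitial than in Sertoli (2.55 ± 0.11).

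Among 12 tested relatives of the aldo-keto reductases and polyol enzymes, 2 were higher and 5 lower in Leydig against Sertoli (58.3% called, beside 37.5% of all genes), 7 higher and 1 lower in Leydig against Interstitial (66.7%, beside 45.1%), and 1 higher and 6 lower in Interstitial against Sertoli (58.3%, beside 61.8%). The list's median log2 fold changes were -0.25, 0.45 and -0.66. Akr1cl was the most changed of them towards Sertoli, with -1.39 ± 0.07 in Leydig against Sertoli and -4.02 ± 0.08 in Interstitial against Sertoli. Akr1c14 was also lower in Leydig than in Sertoli (-1.19 ± 0.20), and Akr1c13 was higher (1.12 ± 0.30). Akr1d1, which encodes a steroid reductase, was higher in Leydig than in Interstitial (2.53 ± 0.73), and Akr1c19 was lower there (-2.25 ± 0.35). Reads per library were few, at 1 to 14 for Akr1d1, 4 to 61 for Akr1c19 and 11 to 39 for Akr1c13.

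Adrenal medulla markers had their highest sum in Interstitial replicate B. Summed over 8 genes, they reached 4.21, 4.55 and 4.44 CPM in replicates A, B and C of Leydig, 9.03, 35.8 and 16.6 CPM in Interstitial, and 9.49, 10.2 and 8.86 CPM in Sertoli. Of 7 tested, 1 was higher and 6 lower in Leydig against Interstitial (100% called, beside 45.1% of all genes). In Interstitial against Sertoli 5 were higher and 1 lower (85.7%, beside 61.8%). Some of these 7, Dbh among them, passed the low-count filter only through Interstitial, where they were high. The shares called are therefore not a like comparison with all genes. Dbh, which makes noradrenaline, had 23, 231 and 88 reads in the Interstitial libraries and 0 or 1 in every other library. Chgb, a protein of secretory granules, had 67, 478 and 224 reads in Interstitial and 7 to 14 elsewhere. In Interstitial replicate B, where both were highest, Cyp21a1 had 1 read, Cyp11b1 3 reads and Cyp11b2 1 read, and Mc2r was at 2.33 CPM against 2.70 CPM in replicate A. Without that library, edgeR called 3 members in Leydig against Interstitial, all but Akr1b3, and 3 in Interstitial against Sertoli. Pnmt, which makes adrenaline, went the other way, with 55, 55 and 45 reads in Leydig, 5, 5 and 4 in Interstitial, and 164, 211 and 174 in Sertoli.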

How the data were processed

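RNA sequencing libraries of 3 sorted populations were analysed from a deposited table of raw counts, with a column for each lane of each library. TopHat2 2.0.6, HTSeq, limma and the build mm10 are named, per the submitters' processing notes. Libraries were stranded and ribosome-depleted, per the labels' protocols. The authors also deposited tables of log2 fold changes, p-values and scores, per the file headers, with no account of the model behind them in the sources used here. The 5 HTSeq summary lines stayed out of all tests. They put 32.2 to 38.5% of reads outside genes and 0.62 to 0.77% as ambiguous, and the not-unique line held 0 in every column.

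Counts were summed over 4 lanes (8.16 to 9.91 M reads in genes per lane). Replicates A and B of the 3 populations (6 libraries, 3 residual degrees of freedom) were fitted together with edgeR 4.0.16 in R 4.3.3 (glmQLFit, glmQLFTest, TMM, filterByExpr). P-values were adjusted by Benjamini-Hochberg over the 18048 genes kept, and genes were called at 0.05. SEs are the log2 fold change over the square root of F, and 95% intervals use the t distribution with the residual and prior degrees of freedom. The fit was tested on simulated counts. DESeq2 1.42.0 and limma 3.58.1 (voom) were alternatives, as were other scalings, filters, lanes, libraries and a block for the replicate letter. Symbols, coordinates and exon lengths came from GENCODE M21 on GRCm38. No library pair of a population agreed within sampling noise (chi-square over degrees of freedom 3.98 to 26.1). Among the tested members, replicate C lay between A and B in some populations and outside them in others. Mc2r in Sertoli was at 3.28 CPM in C, beside 3.00 CPM in A and 2.76 CPM in B. Mrap in Leydig was at 0.866 CPM in C, beside 1.23 CPM in A and 0.548 CPM in B.

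Named are all members, in each other gene list and comparison the 2 called genes with the largest rise and the 2 with the largest fall (cell type marker lists are given as sums), the 3 nearest profiles, and overlapping or neighbouring genes. Pomc, Mc1r, Mc3r, Mc5r, Amh, Cyp17a1, Star, Inha, Dmrt1, Dbh, Chgb, Pnmt, Cyp21a2-ps and Gm38056 were named outside that rule, after their values were seen. The members and lists were chosen with earlier results of these data known.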

Additional observations from a re-analysis of the deposited data

How the results depend on the processing

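The 12 log2 fold changes of the tested members were refitted under 16 alternatives each. Of these 192 values, 190 kept their direction and their side of the threshold. The difference of Mrap in Leydig against Sertoli, not called, turned to 0.050 without Leydig replicate B, and ranged from -1.16 to 0.050 over the single libraries left out. Akr1b3 in Leydig against Interstitial lost its call without Interstitial replicate B (0.29, edgeR adjusted p 0.0770). For both, the cause was not tested beyond the fewer samples. With a floor of 10 reads in place of 3, 2 members instead of 1 were at the floor in all 9 libraries. Leaving out 1 library at a time, members called ranged over 3 to 3 in Leydig against Sertoli, 3 to 4 in Leydig against Interstitial and 3 to 3 in Interstitial against Sertoli, and genes called over 4703 to 6307, 5535 to 7691 and 9367 to 11658. When the replicate letter was fitted as a block, edgeR called 7839 genes in Leydig against Sertoli and no member's call changed. The letters A and B are not known to mark a shared day, and deviations of same-lettered libraries correlated at 0.248, 0.018 and 0.100 over genes. The mitochondrial genome held 15.5 to 20.3% of reads in genes, so dividing by the other reads raises every level above 0 by construction. The rise exceeded the spread between A and B in 9 of 21 member levels, a count that depends on that spread. Depth limits Cyp21a1, Cyp11b1 and Cyp11b2, whose counting intervals span several fold.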
